A study of Mus musculus with 10 samples.

Results

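Red cell precursors switch on a shared set of genes for the red cell membrane, for heme and for iron uptake, and 37 genes, most of them of this kind, were listed by symbol for description here. Of these, 36 were measured among the 19938 genes of the array table. No level of Epb41 was analysed here, and it enters only the promoter counts. Each measured gene had 1 probe set. RNA came from CD4-positive spleen cells of female NOD and B10 mice aged 8 weeks, taken by positive magnetic selection, and each sample was hybridised to 1 Affymetrix array. NOD is known as a strain that develops autoimmune diabetes, and B10 mice served as the other strain. The labels give the genotypes of the mice used here as NODk and B10Br. Whether NODk mice develop diabetes was not examined here.

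The arrays formed 4 groups. NOD T1 (2 arrays) and B10 T1 (2 arrays) held cells stimulated for 4 h with PMA at 10 ng/ml and ionomycin at 1 uM, a pair of drugs that bypasses the antigen receptor of T cells. NOD T0 (3 arrays) and B10 T0 (3 arrays) held unstimulated cells, and the labels leave unclear whether these were also kept in culture. Replicate 1 at T1 was not analysed here for either strain. The labels call the samples biological replicates without naming the animal, so p-values measure the spread between these samples only. Values are log2 intensities and differences are log2 differences throughout.

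In the adult mouse, the red pulp of the spleen holds red cell precursors beside the macrophages that clear old red cells. In these precursors, erythropoietin acts through its receptor, and the factors Gata1, Tal1 and Klf1 switch on the genes of the membrane skeleton, of globin and of heme. Heme is built by a chain of enzymes that starts and ends in the mitochondrion, fed by iron that enters through the transferrin receptor.

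Most of the listed genes were higher in NOD than in B10 cells before stimulation, and some of them passed the test after it. The genes were listed with earlier results of these data known, so counts set against all genes describe the list and are not independent support. At T0, 31 of 36 were higher in NOD at an adjusted p under 0.05 and 0 were lower, against 3.44% of all genes higher and 2.35% lower. The median difference was 1.65 over the 36 genes and -0.01 over all genes. At T1, 12 of 36 were higher in NOD and 0 were lower, against 1.77% and 1.83% of all genes. The median difference at T1 was 1.69 over the 36 genes and 0.01 over all genes. The estimate was positive for all 36 genes at T0 and at T1. All 5 NOD arrays lay above all 5 B10 arrays for 30 of the 36 genes, against 2.17% of all genes. The exceptions were Icam4, Gata1, Tal1, Alad, Ppox and Tfrc. In bulk RNA such as this, fewer cells of a type and less RNA per cell cannot be told apart.

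**Figure D1:**
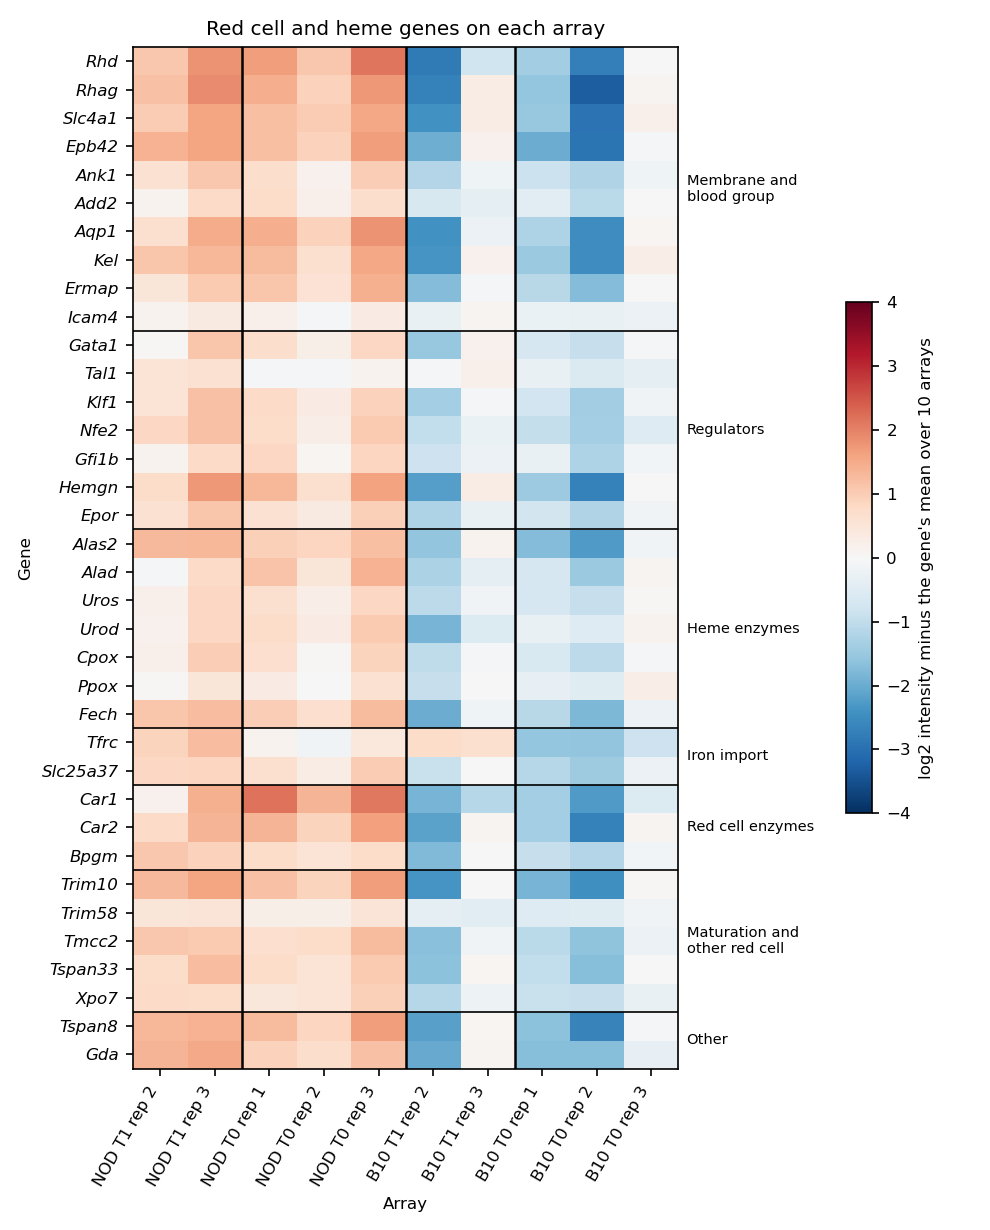
Level of each of the 36 measured genes (rows, ordered by role) on each of the 10 arrays (columns, NOD left of B10), as log2 intensity minus that gene's mean over the arrays. The NOD columns lie above the B10 columns for 30 genes, and the B10 column of replicate 3 lies above that of replicate 2 for 36 genes at T0 and 34 at T1.

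Arrays within B10 differed by more than arrays within NOD for these genes. At T0, B10 replicate 3 exceeded B10 replicate 2 for 36 of 36 genes, against 51.1% of all genes, and by over 1 for 26 of them, against 0.361% of all genes. At T1, B10 replicate 3 exceeded replicate 2 for 34 of 36 genes, against 48.8% of all genes, and by over 1 for 21, against 0.481% of all genes. The same 19 genes passed 1 at both T0 and T1, against 0.276% of all genes. In NOD, replicate 3 exceeded replicate 2 for 33 of 36 genes at T1, against 54.9% of all genes, and for 36 of 36 at T0, against 45.9%. For 31 of 36 genes replicate 3 exceeded replicate 2 in all 4 groups, against 7.02% of all genes. The NOD gaps passed 1 for 2 genes at T1 and 1 gene at T0, against 0.125% and 0.15% of all genes. The median gap between replicates 3 and 2 was 0.50 in NOD T1, 0.66 in NOD T0, 1.43 in B10 T1 and 1.31 in B10 T0.

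The widest gap belonged to Rhag, at 3.01 in B10 T1 and 3.43 in B10 T0. For 35 of 36 genes the lowest of the 10 arrays was a B10 replicate 2, at T0 for 24 genes and at T1 for 11. The median SD of the 36 genes was 0.35 in NOD T1, 0.34 in NOD T0, 1.01 in B10 T1 and 0.66 in B10 T0, against 0.12, 0.11, 0.09 and 0.10 over all genes. Without both B10 arrays of replicate 3, 34 genes were higher in NOD at T0, against 3.33% of all genes, and 30 at T1, against 2.11% of all genes. The median difference was then 2.03 at T0 and, with 1 array left in B10 T1, 2.43 at T1. B10 replicate 3 was high for most of these genes, so leaving it out had to widen most differences. The T0 median was 1.35 without B10 T0 replicate 2, and the T1 median was 0.98 without B10 T1 replicate 2.

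**Figure D2:**
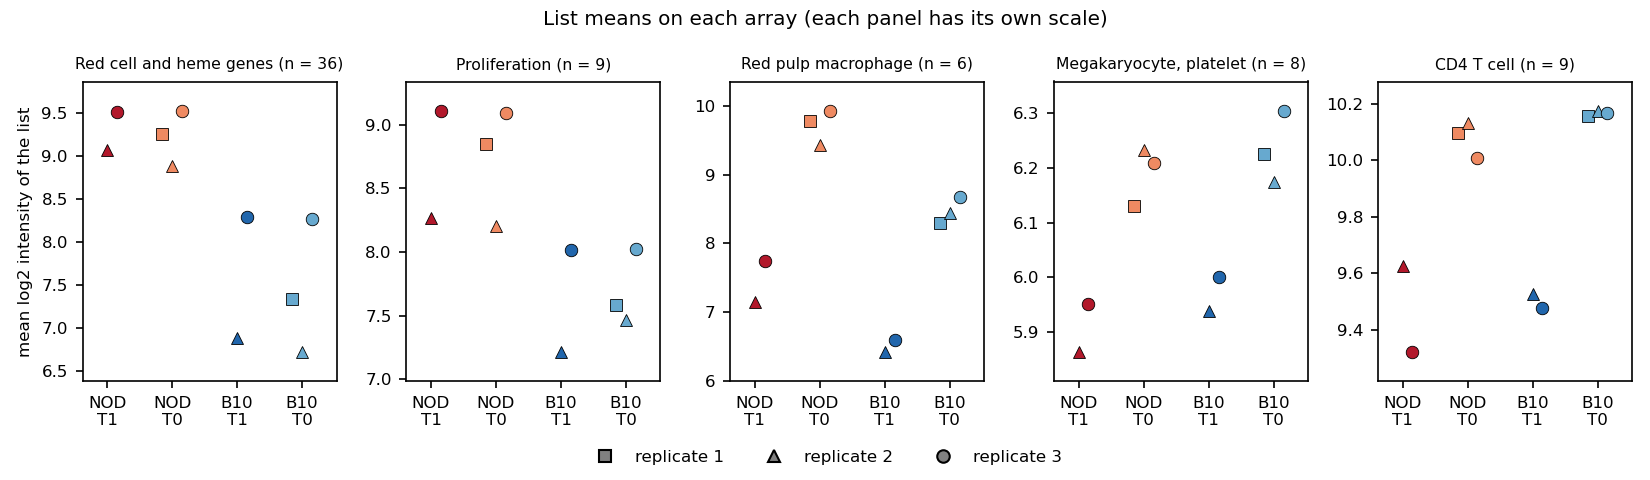
Mean log2 intensity of the 36 listed genes and of marker lists on each array, with NOD left of B10 and T1 left of T0 within each strain; each point is 1 array. The listed genes averaged 9.07 to 9.51 in NOD T1, 8.88 to 9.53 in NOD T0, 6.88 to 8.29 in B10 T1 and 6.71 to 8.27 in B10 T0.

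Markers of other cells were read on the same arrays. Of all genes, 3.44% were higher and 2.35% lower in NOD at T0, and 1.77% and 1.83% at T1. The 9 CD4 T cell markers averaged 9.32 to 9.62 in NOD T1, 10.01 to 10.13 in NOD T0, 9.48 to 9.53 in B10 T1 and 10.16 to 10.18 in B10 T0, and 0 of them differed between strains at T0 at an adjusted p under 0.05. At T1, Bcl11b was higher in NOD (0.48 ± 0.12, adjusted p = 0.0434). The 9 proliferation genes averaged 8.27 and 9.11 on the NOD T1 arrays, 8.85, 8.21 and 9.09 in NOD T0, 7.21 and 8.02 in B10 T1 and 7.58, 7.47 and 8.02 in B10 T0. Replicate 3 was above replicate 2 in all 4 groups, as for most listed genes. Of the 9, Mki67, Ccna2 and Cdk1 were higher in NOD at T0 and 0 passed at T1. All 6 red pulp macrophage markers (Slc40a1, Hmox1, Vcam1, Spic, Cd163 and Treml4) were higher in NOD at T0, and 3 of 6 at T1. These averaged 7.15 to 7.75 in NOD T1, 9.43 to 9.93 in NOD T0, 6.42 to 6.6 in B10 T1 and 8.30 to 8.67 in B10 T0. At T0, 6 of 9 monocyte and macrophage markers and 4 of 9 neutrophil markers were also higher in NOD, and 0 of either at T1. At T0, Klrb1c and Klrd1 of 5 NK cell markers and Cd8b1 of 2 CD8 T cell markers were lower in NOD, and Cr2 of 8 B cell markers was higher. At T1, Cd79a of the B cell markers was lower, and 0 of the NK or CD8 T cell markers passed. The part of dividing cells or of these other cell types in the strain differences was not tested. Signal over background is not known for these probes, so no marker can be called absent. Of 8 megakaryocyte and platelet markers, 0 were higher in NOD and Clec1b was lower at T0 (-0.53 ± 0.09, adjusted p = 0.00372), and 0 passed at T1, and the list averaged 5.86 to 6.30 over the 10 arrays. Of 7 mast cell and basophil markers, 0 passed in either direction at T0 or T1.

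Promoters are printed for 4 listed genes that were higher in NOD at T0. GATA and KLF factors are known to act on red cell genes. Each line gives the 250 bases before the RefSeq gene start on the gene's own strand, 5′ to 3′, from assembly GRCm38.p6. Capitals mark matches to the GATA letters AGATAA (the first letter may be T in place of A and the last may be G in place of A) and to the KLF letters CACCC, on either strand. Alas2 lies at chrX:150547167-150547416 on the plus strand, Rhd at chr4:134864286-134864535 on the plus strand, Klf1 at chr8:84901732-84901981 on the plus strand and Epor at chr9:21963577-21963826 on the minus strand.
Alas2: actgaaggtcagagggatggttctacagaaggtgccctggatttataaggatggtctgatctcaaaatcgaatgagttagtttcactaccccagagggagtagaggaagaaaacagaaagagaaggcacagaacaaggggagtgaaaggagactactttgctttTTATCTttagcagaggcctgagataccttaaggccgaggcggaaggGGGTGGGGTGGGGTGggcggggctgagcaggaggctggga
Rhd: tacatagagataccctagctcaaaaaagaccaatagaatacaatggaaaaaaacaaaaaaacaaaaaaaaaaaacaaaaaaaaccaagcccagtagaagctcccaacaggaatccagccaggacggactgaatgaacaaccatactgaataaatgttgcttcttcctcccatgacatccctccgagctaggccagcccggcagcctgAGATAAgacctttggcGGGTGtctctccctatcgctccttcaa
Klf1: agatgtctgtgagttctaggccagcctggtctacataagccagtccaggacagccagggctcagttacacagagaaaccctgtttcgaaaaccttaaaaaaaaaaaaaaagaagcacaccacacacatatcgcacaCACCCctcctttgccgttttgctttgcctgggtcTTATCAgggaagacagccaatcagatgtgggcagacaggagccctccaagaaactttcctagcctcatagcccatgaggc
Epor: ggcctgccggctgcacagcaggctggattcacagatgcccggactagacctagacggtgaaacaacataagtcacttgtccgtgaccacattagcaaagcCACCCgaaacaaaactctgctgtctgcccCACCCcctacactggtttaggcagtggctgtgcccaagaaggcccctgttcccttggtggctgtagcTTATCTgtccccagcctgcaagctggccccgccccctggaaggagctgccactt
The GATA match began 86 bases before the gene start in Alas2, 43 in Rhd, 80 in Klf1 and 54 in Epor. The Alas2 window held 3 KLF matches in a row, Epor held 2, and Rhd and Klf1 held 1 each. Windows were given for 29 of the 37 listed genes, of which 20 (69.0%) held a GATA match, against 29.7% of 27025 genes. A KLF match was held by 19 of 29 (65.5%), against 54.5% of genes, and both by 14 of 29 (48.3%), against 14.9%. The 4 printed genes are among these 14, so they do not stand for the whole list. No GATA match overlapped a KLF match in these windows. Tfrc, Urod, Ppox, Gata1, Alad, Aqp1, Bpgm, Gda and Tspan33 had a window without a GATA match. A match is a description of letters and not evidence that a factor was bound.

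Genes of the red cell membrane gave some of the widest strain differences. At T0, 9 of 10 measured were higher in NOD, with a median difference of 2.49, and at T1, 2 of 10 (Rhd and Ank1) were higher. In the values that follow, T1 arrays are given as replicates 2 and 3 and T0 arrays as replicates 1, 2 and 3. Rhd, the Rh blood group protein, read 9.26 and 9.99 in NOD T1, 9.87, 9.26 and 10.32 in NOD T0, 5.37 and 7.38 in B10 T1 and 6.81, 5.45 and 8.18 in B10 T0. Rhag, its partner that carries ammonia, read 9.52 and 10.26 in NOD T1, 9.81, 9.27 and 10.10 in NOD T0, 5.64 and 8.65 in B10 T1 and 6.81, 5.05 and 8.47 in B10 T0. Slc4a1, the band 3 anion exchanger, read 11.28 and 11.82 in NOD T1, 11.46, 11.27 and 11.80 in NOD T0, 7.81 and 10.56 in B10 T1 and 8.74, 7.30 and 10.46 in B10 T0. Each of these had every NOD array above every B10 array. Rhd differed by 3.01 ± 0.60 (SE) at T0 (adjusted p = 0.0104) and 3.25 ± 0.74 at T1 (adjusted p = 0.0305). Rhag differed by 2.95 ± 0.78 at T0 (adjusted p = 0.0446) and 2.74 ± 0.95 at T1 (adjusted p = 0.151). Slc4a1 differed by 2.68 ± 0.70 at T0 (adjusted p = 0.0446) and 2.36 ± 0.86 at T1 (adjusted p = 0.176).

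Proteins that tie band 3 to the membrane skeleton were also higher in NOD at T0. Epb42, which binds band 3 and ankyrin, read 9.93 and 10.11 in NOD T1, 9.75, 9.46 and 10.23 in NOD T0, 6.61 and 8.71 in B10 T1 and 6.56, 5.62 and 8.46 in B10 T0. Ank1, the red cell ankyrin, read 8.31 and 8.79 in NOD T1, 8.42, 7.88 and 8.69 in NOD T0, 6.54 and 7.55 in B10 T1 and 6.85, 6.51 and 7.53 in B10 T0. Add2, an adducin that joins spectrin to actin, read 6.69 and 7.35 in NOD T1, 7.29, 6.78 and 7.27 in NOD T0, 5.92 and 6.21 in B10 T1 and 6.12, 5.50 and 6.55 in B10 T0. The NOD arrays lay above the B10 arrays for all 3 genes. The differences at T0 were 2.93 ± 0.61 for Epb42 (adjusted p = 0.0129), 1.37 ± 0.30 for Ank1 (0.0163) and 1.06 ± 0.24 for Add2 (0.0218). At T1 they were 2.36 ± 0.74 (0.112), 1.51 ± 0.36 (0.04) and 0.96 ± 0.30 (0.109).

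Channels and blood group proteins of the membrane gave the same picture except for Icam4. Aqp1, the water channel, read 9.66 and 10.49 in NOD T1, 10.45, 9.92 and 10.81 in NOD T0, 6.59 and 8.78 in B10 T1 and 7.76, 6.52 and 9.09 in B10 T0. Kel, the Kell blood group protease, read 8.87 and 9.07 in NOD T1, 9.01, 8.40 and 9.30 in NOD T0, 5.39 and 7.92 in B10 T1 and 6.28, 5.27 and 8.002 in B10 T0. Ermap, the Scianna blood group protein, read 9.18 and 9.72 in NOD T1, 9.79, 9.26 and 10.09 in NOD T0, 6.96 and 8.61 in B10 T1 and 7.56, 6.95 and 8.67 in B10 T0. No NOD array of these genes fell below a B10 array, and B10 replicate 2 was low at both T0 and T1. Their differences at T0 were 2.60 ± 0.60 (adjusted p = 0.0218), 2.39 ± 0.64 (0.0482) and 1.99 ± 0.44 (0.0171), in that order. At T1 the differences were 2.39 ± 0.73 (0.102), 2.32 ± 0.78 (0.14) and 1.67 ± 0.53 (0.118). Icam4, an adhesion protein of the LW blood group, spanned only 0.65 over the 10 arrays and differed by 0.41 ± 0.13 at T0 (adjusted p = 0.0887).

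Regulators of red cell formation were higher in NOD at T0 for 6 of 7, all but Gata1, with a median difference of 1.34. At T1, 2 of 7 (Nfe2 and Epor) were higher. Gata1, the factor that governs red cell and megakaryocyte genes, read 7.004 and 8.07 in NOD T1, 7.66, 7.19 and 7.78 in NOD T0, 5.44 and 7.11 in B10 T1 and 6.29, 6.02 and 6.88 in B10 T0. Tal1, its partner in DNA binding, read 8.27 and 8.31 in NOD T1, 7.63, 7.64 and 7.85 in NOD T0, 7.63 and 7.91 in B10 T1 and 7.41, 7.11 and 7.31 in B10 T0. Klf1, the activator of adult globin and many membrane genes, read 8.08 and 8.70 in NOD T1, 8.29, 7.84 and 8.44 in NOD T0, 6.15 and 7.43 in B10 T1 and 6.75, 6.13 and 7.37 in B10 T0. The strains did not overlap for Klf1, while for Gata1 and Tal1 the highest B10 array passed the lowest NOD array. The difference at T0 was 1.15 ± 0.38 for Gata1 (adjusted p = 0.117), 0.43 ± 0.11 for Tal1 (0.0395) and 1.44 ± 0.34 for Klf1 (0.0236). At T1 the differences were 1.26 ± 0.46 (0.181), 0.52 ± 0.13 (0.054) and 1.60 ± 0.41 (0.0541).

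Nfe2, the tissue-restricted subunit of a globin activator that also acts in platelet formation, read 7.85 and 8.21 in NOD T1, 7.76, 7.28 and 8.09 in NOD T0, 6.04 and 6.76 in B10 T1 and 6.06, 5.68 and 6.51 in B10 T0. Epor, the erythropoietin receptor, read 7.92 and 8.43 in NOD T1, 7.93, 7.67 and 8.29 in NOD T0, 6.08 and 7.04 in B10 T1 and 6.58, 6.13 and 7.17 in B10 T0. The strains were separate for both. Nfe2 differed by 1.63 ± 0.24 at T0 (adjusted p = 0.00207) and 1.63 ± 0.30 at T1 (adjusted p = 0.0111). Epor differed by 1.34 ± 0.28 at T0 (adjusted p = 0.0134) and 1.62 ± 0.34 at T1 (adjusted p = 0.0226). Gfi1b, a repressor needed for red cell and platelet lineages, read 8.14 and 8.77 in NOD T1, 8.85, 8.10 and 8.88 in NOD T0, 7.19 and 7.78 in B10 T1 and 7.73, 6.77 and 7.91 in B10 T0. Hemgn, a nuclear protein of blood precursors, read 9.65 and 10.64 in NOD T1, 10.22, 9.53 and 10.50 in NOD T0, 6.69 and 9.21 in B10 T1 and 7.45, 6.19 and 8.93 in B10 T0. Here too no NOD array fell below a B10 array. Gfi1b differed by 1.14 ± 0.30 at T0 (adjusted p = 0.042) and 0.97 ± 0.36 at T1 (0.189), and Hemgn by 2.56 ± 0.66 at T0 (0.0401) and 2.19 ± 0.81 at T1 (0.181).

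Enzymes of heme synthesis were higher in NOD at T0 for 4 of 7 (Alas2, Alad, Uros and Fech), with a median difference of 1.11. At T1, 2 of 7 (Urod and Fech) were higher. In pathway order, Alas2, the rate-limiting first enzyme in red cell precursors, read 11.64 and 11.68 in NOD T1, 11.31, 11.21 and 11.54 in NOD T0, 8.76 and 10.48 in B10 T1 and 8.62, 8.09 and 10.21 in B10 T0. Alad, which joins the product into a pyrrole, read 9.56 and 10.41 in NOD T1, 10.79, 10.12 and 11.02 in NOD T0, 8.38 and 9.25 in B10 T1 and 8.95, 8.14 and 9.74 in B10 T0. Uros, which closes the tetrapyrrole ring, read 7.499 and 8.14 in NOD T1, 7.94, 7.58 and 8.12 in NOD T0, 6.24 and 7.16 in B10 T1 and 6.62, 6.39 and 7.35 in B10 T0. Alas2 and Uros had all NOD arrays above all B10 arrays, and for Alad NOD T1 replicate 2 lay below B10 T0 replicate 3. Alas2 differed by 2.38 ± 0.47 at T0 (adjusted p = 0.00972) and 2.04 ± 0.58 at T1 (adjusted p = 0.0769). Alad differed by 1.70 ± 0.37 at T0 (0.0166) and 1.17 ± 0.46 at T1 (0.208), and Uros by 1.09 ± 0.27 at T0 (0.0349) and 1.12 ± 0.34 at T1 (0.0964).

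The later enzymes trim the side chains of the ring, oxidise it and insert iron. Urod, which removes carboxyl groups, read 9.48 and 10.13 in NOD T1, 10.05, 9.64 and 10.34 in NOD T0, 7.44 and 8.76 in B10 T1 and 9.02, 8.78 and 9.45 in B10 T0. Cpox, the next oxidase, read 8.74 and 9.52 in NOD T1, 9.19, 8.56 and 9.43 in NOD T0, 7.503 and 8.49 in B10 T1 and 7.91, 7.47 and 8.47 in B10 T0. Ppox, which makes protoporphyrin, read 8.34 and 8.78 in NOD T1, 8.61, 8.28 and 8.90 in NOD T0, 7.35 and 8.29 in B10 T1 and 7.95, 7.79 and 8.55 in B10 T0. The strains were narrowly separate for Urod and Cpox and overlapped for Ppox, the 1 gene of the 36 whose T0 arrays overlapped between strains. At T0, 35 of 36 genes had all NOD arrays above all B10 arrays, against 11.1% of all genes. None of these 3 enzymes passed at T0, where the differences were 0.93 ± 0.30 for Urod (adjusted p = 0.112), 1.11 ± 0.31 for Cpox (0.0603) and 0.50 ± 0.25 for Ppox (0.386). At T1 Urod was higher in NOD by 1.71 ± 0.37 (0.0245), while Cpox differed by 1.14 ± 0.38 (0.139) and Ppox by 0.73 ± 0.31 (0.25). Fech, the ferrochelatase that places iron in the ring, read 9.11 and 9.24 in NOD T1, 8.997, 8.68 and 9.27 in NOD T0, 6.02 and 7.83 in B10 T1 and 6.89, 6.22 and 7.77 in B10 T0. It differed by 2.02 ± 0.41 at T0 (adjusted p = 0.0117) and 2.25 ± 0.51 at T1 (adjusted p = 0.0294), with the strains separate.

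Both genes of iron supply were higher in NOD at T0 and neither passed at T1. Tfrc, the transferrin receptor that brings iron into precursors and also into dividing T cells, read 12.02 and 12.36 in NOD T1, 11.26, 10.96 and 11.55 in NOD T0, 11.85 and 11.75 in B10 T1 and 9.56, 9.54 and 10.29 in B10 T0. The T0 arrays were separate between strains, and both T1 groups lay above both T0 groups. Tfrc differed between strains by 1.46 ± 0.20 at T0 (adjusted p = 0.00098) and 0.39 ± 0.24 at T1 (adjusted p = 0.478). Slc25a37, the mitoferrin that carries iron into the mitochondrion, read 10.06 and 10.10 in NOD T1, 9.88, 9.53 and 10.26 in NOD T0, 8.35 and 9.25 in B10 T1 and 8.08, 7.80 and 8.98 in B10 T0. Its NOD arrays all lay above its B10 arrays. Slc25a37 differed by 1.60 ± 0.29 at T0 (adjusted p = 0.00617) and 1.28 ± 0.35 at T1 (adjusted p = 0.0716).

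**Figure D3:**
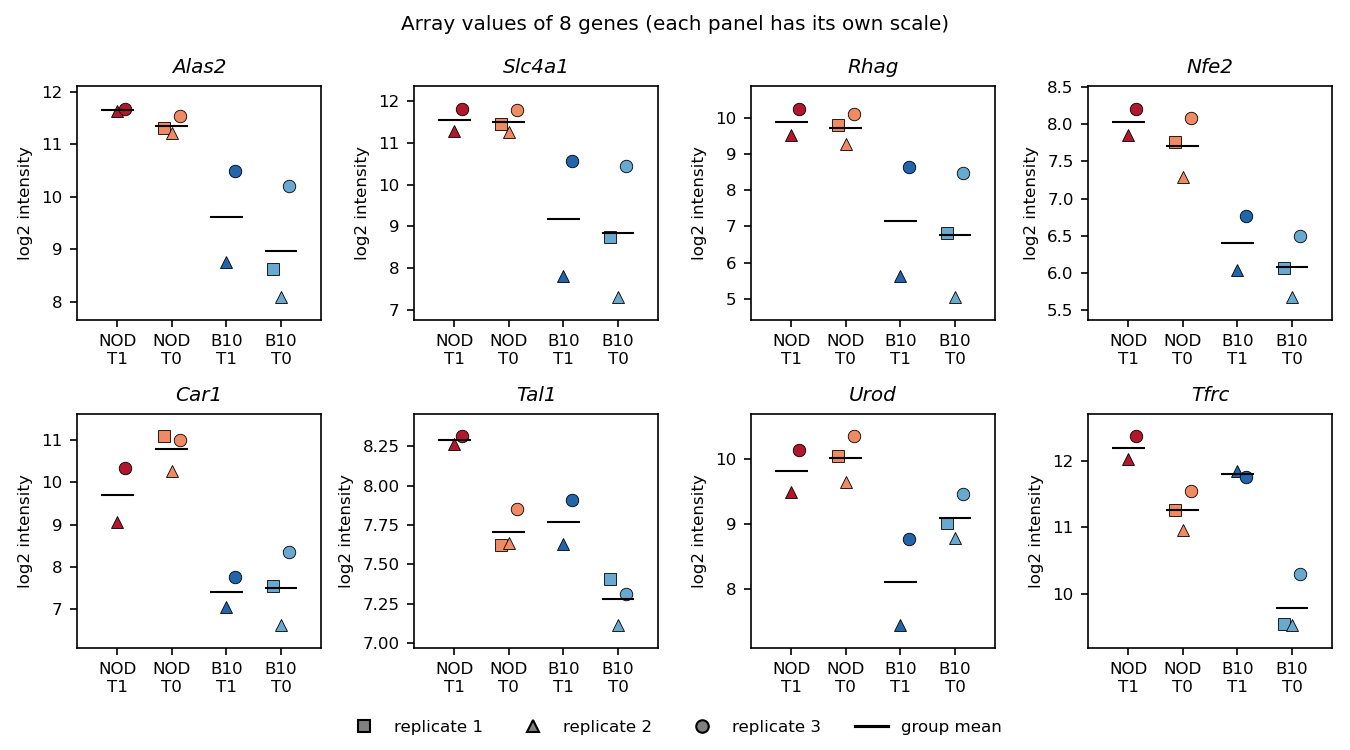
Log2 intensity on every array for 8 of the listed genes, with NOD left of B10 and T1 left of T0; points are arrays, marked by replicate, and bars are group means. Slc4a1 and Alas2 keep the strains apart at both T0 and T1, while Tfrc at T1 brings B10 arrays of 11.75 and 11.85 close to NOD arrays of 12.02 and 12.36.

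Soluble red cell enzymes were higher in NOD for 3 of 3 at T0 and 2 of 3 at T1 (Car1 and Bpgm). Car1, a carbonic anhydrase abundant in red cells, read 9.07 and 10.34 in NOD T1, 11.08, 10.26 and 11.005 in NOD T0, 7.05 and 7.76 in B10 T1 and 7.55, 6.64 and 8.35 in B10 T0. Car2, a related carbonic anhydrase, read 11.20 and 11.79 in NOD T1, 11.81, 11.34 and 12.07 in NOD T0, 8.29 and 10.54 in B10 T1 and 9.10, 7.73 and 10.56 in B10 T0. Bpgm, which makes the phosphate that lowers the oxygen affinity of haemoglobin, read 10.60 and 10.43 in NOD T1, 10.25, 10.07 and 10.25 in NOD T0, 7.77 and 9.50 in B10 T1 and 8.59, 8.36 and 9.39 in B10 T0. No array broke the order of NOD above B10 in these genes. Car1 gave the widest T0 difference of the 36, 3.27 ± 0.41 (adjusted p = 0.000566), which is 9.63-fold higher in NOD, and differed by 2.30 ± 0.50 at T1 (0.0244). Car2 differed by 2.61 ± 0.62 at T0 (0.0264) and 2.08 ± 0.76 at T1 (0.175), and Bpgm by 1.41 ± 0.35 at T0 (0.0322) and 1.88 ± 0.43 at T1 (0.0304).

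Genes of late maturation were higher in NOD for 5 of 5 at T0 and 3 of 5 at T1 (Trim58, Tmcc2 and Xpo7). Trim10, a ring finger protein needed for terminal red cell differentiation, read 9.81 and 10.08 in NOD T1, 9.69, 9.40 and 10.19 in NOD T0, 6.14 and 8.52 in B10 T1 and 6.66, 6.07 and 8.56 in B10 T0. Trim58, a ubiquitin ligase that acts as the nucleus is shed, read 6.80 and 6.83 in NOD T1, 6.57, 6.56 and 6.85 in NOD T0, 5.93 and 5.85 in B10 T1 and 5.80, 5.85 and 6.17 in B10 T0. Xpo7, an exportin that clears nuclear proteins from maturing precursors, read 10.73 and 10.68 in NOD T1, 10.41, 10.50 and 10.92 in NOD T0, 8.82 and 9.74 in B10 T1 and 9.05, 9.03 and 9.65 in B10 T0. The strains were separate for all 3, and the B10 arrays of Trim58 lay close together. Trim10 differed by 2.66 ± 0.60 at T0 (adjusted p = 0.0203) and 2.62 ± 0.74 at T1 (0.0767). Trim58 differed by 0.72 ± 0.12 at T0 (0.00312) and 0.92 ± 0.14 at T1 (0.00447), and Xpo7 by 1.37 ± 0.22 at T0 (0.00369) and 1.42 ± 0.27 at T1 (0.0148).

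Tspan33, a tetraspanin needed for normal red cell formation in mice, read 8.75 and 9.27 in NOD T1, 8.75, 8.57 and 9.09 in NOD T0, 6.38 and 8.11 in B10 T1 and 7.04, 6.32 and 8.01 in B10 T0. Tmcc2, a transmembrane coiled-coil protein, read 8.62 and 8.60 in NOD T1, 8.24, 8.28 and 8.81 in NOD T0, 5.89 and 7.43 in B10 T1 and 6.48, 5.93 and 7.31 in B10 T0. The strains were separate for both. Tspan33 differed by 1.68 ± 0.42 at T0 (adjusted p = 0.0368) and 1.77 ± 0.52 at T1 (0.0888), and Tmcc2 by 1.87 ± 0.36 at T0 (0.00923) and 1.95 ± 0.45 at T1 (0.0319). The list also holds Tspan8, a tetraspanin, and Gda, the guanine deaminase, neither of which is a textbook red cell gene. Tspan8 read 8.61 and 8.69 in NOD T1, 8.54, 8.14 and 8.96 in NOD T0, 5.11 and 7.35 in B10 T1 and 5.66, 4.60 and 7.23 in B10 T0. Gda read 9.36 and 9.53 in NOD T1, 8.93, 8.70 and 9.17 in NOD T0, 5.996 and 8.13 in B10 T1 and 6.32, 6.29 and 7.69 in B10 T0. Both kept every NOD array above every B10 array. Tspan8 differed by 2.71 ± 0.59 at T0 (0.0166) and 2.42 ± 0.72 at T1 (0.0956), and Gda by 2.17 ± 0.45 at T0 (0.0133) and 2.38 ± 0.55 at T1 (0.0343).

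**Figure D4:**
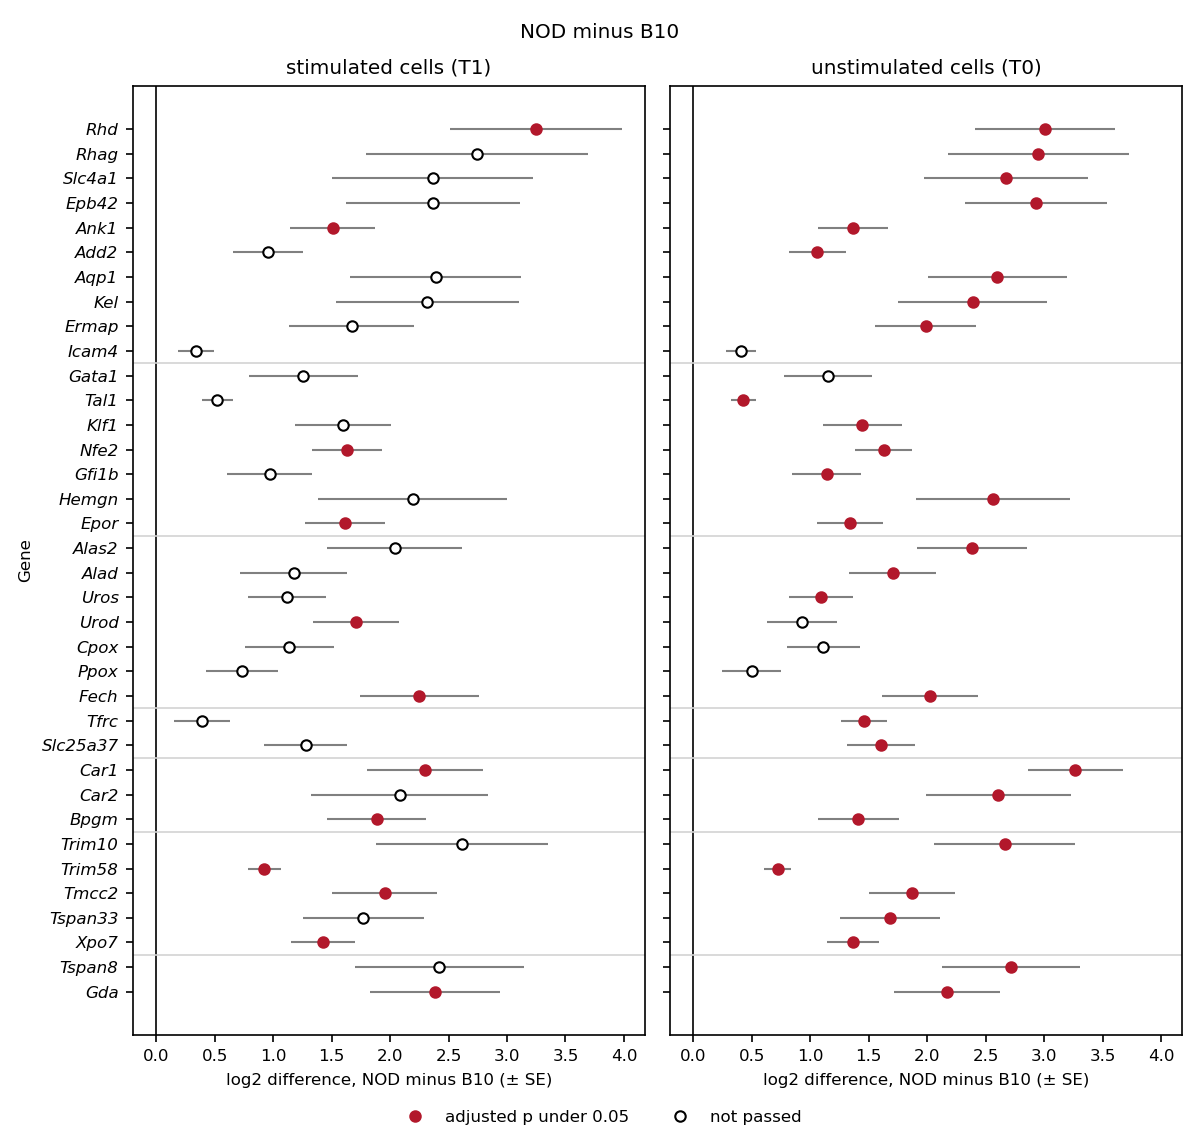
Difference NOD minus B10 in log2 intensity at T1 (left) and T0 (right) for the 36 genes, grouped by role; points are estimates from limma, bars are 1 SE and filled points passed an adjusted p of 0.05. All estimates lie to the right of 0, with 12 filled at T1 and 31 at T0.

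These adjusted p-values came from limma with Benjamini-Hochberg adjustment over all 19938 genes. At T1, 35 of 36 genes had all NOD arrays above all B10 arrays, against 21.6% of all genes, and the exception was Gata1. The unadjusted p was under 0.05 for 35 genes at T0 and 35 at T1, and 11 genes passed the adjusted threshold at both. Of the 31 calls at T0, 9 had an adjusted p from 0.03 to 0.05 and 8 were under 0.01. Leaving out 1 array lowered the T0 count to 8 without B10 T0 replicate 1, NOD T0 replicate 1 or NOD T0 replicate 3, and to 10 without B10 T0 replicate 2. In these fits 1.72%, 1.58%, 1.6% and 1.87% of all genes were higher in NOD, in that order, against 3.44% with all arrays. Nfe2, Tfrc, Slc25a37, Car1, Trim58, Tmcc2 and Xpo7 passed at T0 whichever of the 10 arrays was left out. The T1 count was 6 without NOD T0 replicate 1 and 7 without B10 T0 replicate 1, against 1.24% and 1.31% of all genes. An omission at T1 left 1 array in its group. The median T1 difference was then 0.98 without B10 T1 replicate 2 and 1.45 without NOD T1 replicate 3. It was 1.92 without NOD T1 replicate 2 and 2.43 without B10 T1 replicate 3. Only Trim58 passed at T1 under every such omission. With every probe set tested, the count was 8 at T0 and 1 at T1, against 1.89% and 0.657% of all genes. With a trended, robust variance model it was 6 at T0 and 3 at T1, against 3.03% and 1.79%.

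Stimulation was tested as T1 against T0 within each strain. The SE of these changes ran from 0.12 to 0.87 over the 36 genes, whose median SD was above that of all genes in each group, so a gene that did not pass is not shown to be unchanged. In NOD, 2 of 36 rose (Tfrc and Tal1) and 0 fell, against 16.1% of all genes that rose and 19.5% that fell. In B10, the same 2 rose and 1 fell (Urod), against 13.7% and 18.1% of all genes. The unadjusted p was under 0.05 for 3 genes in each strain. The median change was 0.10 in NOD and 0.07 in B10, beside 0.08 and 0.03 over all genes. The B10 median rested on single arrays, at -0.64 without B10 T1 replicate 3, 0.72 without B10 T1 replicate 2, -0.28 without B10 T0 replicate 2, 0.41 without B10 T0 replicate 3 and -0.21 without both arrays of replicate 3. With arrays scaled to a common 75th percentile, 2 genes rose and 0 fell in each strain. Of all genes, 27% then rose and 15.8% fell in NOD, and 15.4% rose and 15.8% fell in B10.

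Tfrc rose by 0.93 ± 0.22 in NOD (adjusted p = 0.00482), which is 1.91-fold, and by 2.004 ± 0.22 in B10 (adjusted p = 1.05e-05), which is 4.01-fold. Tal1 rose by 0.59 ± 0.12 in NOD (0.00211) and 0.49 ± 0.12 in B10 (0.00703). Urod changed by -0.20 ± 0.34 in NOD (0.673) and -0.98 ± 0.34 in B10 (0.041). Its B10 T1 arrays of 7.44 and 8.76 lay below its B10 T0 arrays of 9.02, 8.78 and 9.45, by a narrow margin at the nearest pair. Car1 had the lowest estimate in NOD, -1.08 ± 0.45 (0.0847), against -0.11 ± 0.45 in B10 (0.902), and did not pass in either strain. It passed in NOD without NOD T1 replicate 3 (-1.71), B10 T0 replicate 2 or B10 T0 replicate 3 (both -1.08). Tal1 no longer passed in B10 without B10 T1 replicate 3 (0.35), Tfrc no longer passed in NOD without NOD T1 replicate 3 (0.76), and Urod no longer passed without B10 T0 replicate 1 (-1.02), B10 T0 replicate 3 (-0.80), B10 T1 replicate 2 (-0.32) or NOD T0 replicate 1. Without both B10 arrays of replicate 3, the B10 changes were 2.30 for Tfrc, 0.37 for Tal1, -1.46 for Urod and -0.70 for Bpgm, of which all but Tal1 passed. In B10, Bpgm (-1.01) passed without B10 T1 replicate 3, Gda (1.36) without B10 T1 replicate 2, and Epb42 (1.57), Alas2 (1.27) and Slc25a37 (0.87) without B10 T0 replicate 3. The Tfrc call in B10 and the Tal1 call in NOD passed under every omission of 1 array.

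**Figure D5:**
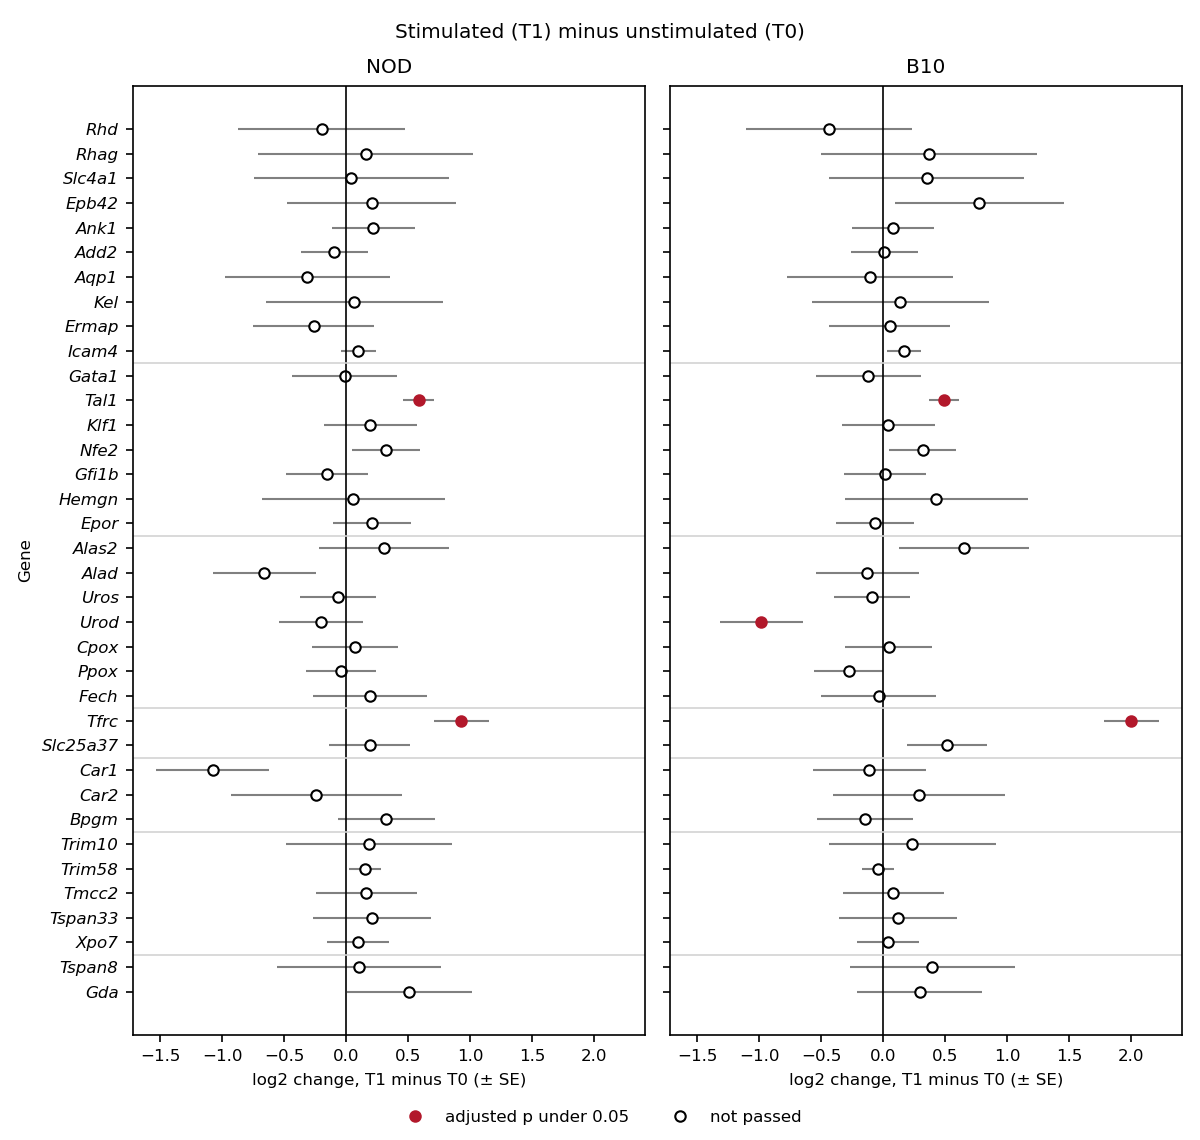
Change with stimulation, T1 minus T0 in log2 intensity, in NOD (left) and B10 (right) for the 36 genes; points are limma estimates, bars are 1 SE and filled points passed an adjusted p of 0.05. Tfrc and Tal1 are filled in both strains and Urod in B10 alone, and the difference between strains in that change did not pass for any of the 36.

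The difference in stimulation between strains, tested as an interaction, passed for 0 of 36 genes in either direction by limma, against 0.0953% of all genes positive and 0.15% negative. The unadjusted p was under 0.05 for 1 of them, Tfrc. The estimate for Tfrc, its change in NOD minus that in B10, was -1.07 ± 0.31 (unadjusted p = 0.00464, adjusted p = 0.273). The highest interaction estimate was that of Urod, 0.78 ± 0.48 (0.659). Markers of red pulp macrophages fell with stimulation in both strains, all 6 of 6 in each, with a median change of -2.16 in NOD and -1.82 in B10. Monocyte and macrophage markers fell for 8 of 9 in each strain. Of all genes, 19.5% fell in NOD and 18.1% in B10. The part of other cell types in the changes of Tfrc, Tal1 and Urod was not tested.

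Other genes of the same pathways gave a mixed picture. For comparison with the counts below, 3.44% of all genes were higher in NOD at T0 and 1.77% at T1. Of 12 other membrane genes measured, 7 were higher in NOD at T0 and 0 lower, with a median of 1.02. Tmod1, which caps actin in the skeleton, differed by 2.29 ± 0.50 (adjusted p = 0.0167), Tspo2, a red cell cholesterol-binding protein, by 2.27 ± 0.45 (0.0102) and Sptb, the beta spectrin of red cells, by 1.68 ± 0.37 (0.018). The other 4 were Dmtn, Slc14a1, Xk and Gypc, with differences of 0.56 to 1.19. At T1, Slc14a1 and Mpp1 were higher. Add1, the adducin found in most cells, fell with stimulation by 1.10 in NOD and 1.31 in B10.

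Of 13 other regulators, Lmo2 (1.54) and E2f2 (1.57) were higher in NOD at T0 and Myb, a factor of early precursors and T cells, was lower (-0.96 ± 0.11, adjusted p = 0.000263), with a median of 0.10. At T1, E2f2, Lyl1 and Foxo3 were higher and 0 were lower. With stimulation, 4 of 13 rose and 5 fell in NOD, and 3 rose and 5 fell in B10. The shares of all genes were 16.1% and 19.5% in NOD and 13.7% and 18.1% in B10. Jak2, the kinase of the erythropoietin receptor and of cytokine receptors, rose by 1.51 in NOD and 1.13 in B10.

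Other genes of heme synthesis and mitochondrial iron were higher in NOD at T0 for 6 of 11 and lower for 0, with a median of 0.66. They were Abcb10 (1.51 ± 0.32, adjusted p = 0.0144), Abcb6, Slc25a39, Glrx5, Isca1 and Fam210b, with 0.66 as the lowest of these differences. At T1, 4 of 11 were higher (Abcb10, Slc25a39, Iscu and Isca1). Alas1, the housekeeping form of the first heme enzyme, did not pass between strains at T0 (0.24 ± 0.10, adjusted p = 0.242). It fell with stimulation by 0.72 in NOD and 0.48 in B10, and Alas2 changed by 0.31 ± 0.53 in NOD and 0.65 ± 0.53 in B10, neither of which passed.

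Iron and heme turnover genes, many of them expressed in macrophages, were higher in NOD for 9 of 16 at T0 and 6 of 16 at T1. With stimulation, 9 of 16 fell in NOD and 6 of 16 in B10, against 19.5% and 18.1% of all genes. Slc40a1, the iron exporter ferroportin, changed by -3.29 ± 0.23 in NOD (2.18e-07) and -3.19 ± 0.23 in B10 (2.8e-07). Hmox1, the enzyme that breaks heme down, changed by -1.92 in NOD and -1.58 in B10. Of 13 other genes of late red cells, 9 were higher in NOD at T0 and 9 at T1, with medians of 1.29 at each. Ube2l6, a ubiquitin-conjugating enzyme, gave the widest of these at T0, 1.95 ± 0.35 (adjusted p = 0.00617), and Bnip3l, which clears mitochondria from reticulocytes, passed at T1 (1.53 ± 0.20, adjusted p = 0.00128). Of the globin list, 3 embryonic genes were measured (Hba-x, Hbb-bh1 and Hbb-y) and 0 passed in any of these comparisons by limma. Adult globin genes were not analysed here.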

How the data were processed

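The deposited table holds log2 intensities that the authors made with RMA in Affymetrix Power Tools, per the submitters' processing notes; versions are not given in the sources used here, and the log base was read from the range of the values. RMA brings all arrays to 1 distribution, so array medians lay between 6.18 and 6.23. Intensities near background understate fold changes, and the number of arrays limits precision. Of 35486 probe sets, 21789 had 1 gene symbol in the platform annotation, 1621 several and 12076 none. The probe set with the highest mean stood for each of 19938 genes. Group means of all 10 arrays were fitted with limma 3.58.1 in R 4.3.3 (6 residual degrees of freedom, moderated, two-sided), with 5 contrasts and Benjamini-Hochberg adjustment over all genes in each, at a threshold of 0.05. The fit was run on simulated data with independent noise in each gene and no replicate effect. That run does not test it for genes that move together by replicate. The listed genes, the other gene lists and the tests were chosen with earlier results of these data known. Every listed gene could be named, with array values for those that passed or spanned at least 1. Motifs were searched in the 250 bases before RefSeq gene starts (GRCm38.p6), and a gene with several windows counted if any matched. Alternatives covered scaling, a dim-probe filter, the annotation, the variance model, array weights, the arrays fitted, replicate blocks and omission of each array.

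Deviations of same-numbered T1 and T0 arrays from their group means correlated at -0.01 (replicate 2) and 0.22 (replicate 3) in NOD and at 0.41 and 0.40 in B10. Each T1 group holds 2 arrays, whose deviations mirror each other, so the 2 values of a strain are not separate evidence. These values do not settle whether the arrays are pairs, and the labels do not say so. The numbers were therefore not taken as pairs. Any spread shared by same-numbered arrays stays in the error of the stimulation tests.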

Additional observations from a re-analysis of the deposited data

How the results depend on the processing

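None of the estimates that passed with all 10 arrays changed sign under an alternative. All 36 strain differences were positive at T0 and T1 in each of them, with medians of 1.35 to 2.03 at T0 and 0.98 to 2.43 at T1. The number of genes that passed did move. For higher in NOD at T0 it was 8 with every probe set tested (1.89% of all genes) and 6 with eBayes trend and robust (3.03%). It was 8 to 34 over the omissions of 1 array. Over the omissions of 1 T0 array the share of all genes was 1.58% to 3.84%. For higher in NOD at T1 it was 1 with every probe set tested, 3 with trend and robust, 2 with array weights, 2 with only the arrays compared, 30 without both B10 arrays of replicate 3, and 1 to 29 over the omissions. For higher with stimulation in NOD it was 1 to 2 over the omissions. For lower with stimulation in NOD it was 1 with only the arrays compared, 1 without both B10 arrays of replicate 3, and 0 to 1 over the omissions. For higher with stimulation in B10 it was 1 without both arrays of replicate 3 and 1 to 5 over the omissions. For lower with stimulation in B10 it was 0 with 75th percentile scaling, every probe set, trend and robust, array weights or only the arrays compared, 2 without both arrays of replicate 3, and 0 to 2 over the omissions. With the replicate number as a block, 36 genes were higher in NOD at T0 (3.97% of all genes), 34 at T1 (2.81%), and 2 were lower with stimulation in NOD (18.2%). A block within strain, chosen after seeing the data, gave 6 higher and 2 lower with stimulation in B10 (13.5% and 18% of all genes) and 2 lower in NOD (17.9%). The numbers were not taken as pairs. The 75th percentile scaling shifted every gene by 0.13 with stimulation in NOD and 0.07 in B10. Of all genes, 15.8% to 18.6% were lower with stimulation in B10 under the scaling, probe set, variance, weight and arrays-compared settings. In NOD, 18.5% were lower with only the arrays compared. Over the omissions of 1 T0 array, 12.5% to 16.3% of all genes were higher with stimulation in NOD and 17.1% to 19.3% lower. In B10 these shares were 12.1% to 13.7% and 16.3% to 18%. The interaction passed for 0 genes under every alternative.

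Omissions that left 1 T1 array assume that it varies like the other groups. The causes of these moves were not tested. Groups of 2 or 3 arrays limit precision, and signal over background is not known for these probes.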
